A study of Mus musculus with 8 samples.

Results

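The genes described here are the 10 that encode beta-catenin and the core proteins that set its stability: Ctnnb1 (beta-catenin), the scaffold genes Axin1 and Apc, the kinase genes Gsk3a, Gsk3b and Csnk1a1, the ubiquitin ligase gene Btrc, and the Dishevelled genes Dvl1, Dvl2 and Dvl3. They were taken from the files by their symbols, and all 10 were found once among the 53507 gene rows of each of 8 RNA sequencing libraries. The libraries were made from tdTomato-positive cells of mouse brain, which the labels call progenitor cells, with 2 libraries from embryonic day 13 (E13), 2 from E15, 2 from normoxic pups at postnatal day 12 (P12) and 2 from hypoxic pups at P12. Embryonic samples are labelled wt. Hypoxic pups were kept in 10% oxygen from P3 for 8 days, until P11, normoxic pups stayed in normal air, and hypoxic and control foster mothers were swapped at P6 and P9. All groups share the tdTomato reporter, and the promoter or Cre line that drives it is not given in the sources used here. No label says whether the 2 libraries of a group came from separate animals or pools, so every p-value measures the spread between libraries, which may be technical.

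Beta-catenin joins cadherins to the cytoskeleton at cell contacts and, when it accumulates, enters the nucleus and activates Wnt target genes with TCF and LEF proteins. Without a Wnt signal, Axin and APC hold it in a destruction complex, in which casein kinase 1 and then glycogen synthase kinase 3 phosphorylate its amino-terminal end and beta-TrCP, the product of Btrc, marks it for the proteasome. When Wnt binds its receptors, Dishevelled draws Axin to the membrane and the complex stops working. In the developing cortex this pathway is known for its part in progenitor division and differentiation. The stretch of Ctnnb1 on which the kinases and the ligase act shows how the 10 genes fit together. It lies in exon 3, at chr9:120950602-120950646 on the plus strand of GRCm38, and covers codons 32 to 46 of the 781 in GENCODE M21. Capitals mark the codons of the phosphorylated residues, 33, 37, 41 and 45. Codon 45 is the target of casein kinase 1, the other marked codons are those of glycogen synthase kinase 3, and beta-TrCP reads the phosphorylated stretch that opens the sequence.
Ctnnb1 codons 32 to 46: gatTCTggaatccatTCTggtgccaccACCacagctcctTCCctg

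Between 36252027 and 47084796 counts fell in gene rows of each library, and levels are given as CPM, counts scaled to a common library size after TMM, a method that equalises the bulk of genes between libraries. The P12 libraries stood apart from the embryonic ones in complexity. Genes reaching 10 counts numbered 12785 and 11695 in hypoxia, 14129 and 16468 in normoxia, and 17520 to 18318 in the embryo. The top 100 genes took up 26.7% to 34.5% of a P12 library and 14.2% to 14.9% of an embryonic one. Replicate libraries correlated across genes at 0.70 in hypoxia and 0.82 in normoxia, against 0.98 and 0.99 at E13 and E15 (Pearson's r of log2(CPM + 1), across genes, which are not independent replicates). Summed marker levels differed between the stages. The 5 astrocyte markers summed to 3863 to 7087 CPM at P12 and 1.94 to 7.15 CPM in the embryo, the 8 radial glia and neural stem markers to 4332 to 5964 against 265 to 355 CPM, and the 6 neuron markers to 89.6 to 422 against 1778 to 2031 CPM. The 5 oligodendrocyte progenitor markers summed to 202 to 768 CPM at P12 and 0.0321 to 2.22 CPM in the embryo. The 5 intermediate progenitor markers summed to 4571 to 6728 CPM at P12 and 1159 to 1617 CPM in the embryo. Of these, however, 1 was higher and 4 were lower at P12, with a median log2 difference of -2.69. The 5 endothelial and mural markers summed to 1022 to 2523 against 4.90 to 11.4 CPM, nearly all of it at P12 from Rgs5, with Cldn5 and Pecam1 at 0 in all 4 P12 libraries. In that list 2 markers were higher and 3 lower at P12. Microglia markers summed to at most 21.2 CPM in any library. The part of these markers in the differences between P12 and embryo was not tested. In such bulk libraries fewer cells of a type and less RNA per cell cannot be told apart.

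Ctnnb1 itself (chromosome 9, 120929216 to 120960507, plus strand, GRCm38) was lower at P12 than in the embryo. It had 612 and 598 CPM at E13, 847 and 869 CPM at E15, 214 and 161 CPM in normoxia, and 344 and 219 CPM in hypoxia. Every embryonic library lay above every P12 library, both E15 libraries exceeded both E13 libraries, and the hypoxic pair exceeded the normoxic pair by a narrow gap. Against the embryonic groups, Ctnnb1 fell by 1.94 on the log2 scale in normoxic P12 cells (SE 0.27, edgeR adjusted p = 0.00713), and by 1.65 in all P12 cells (SE 0.20, edgeR adjusted p = 0.00344), 3.13-fold. The E15 to E13 difference, 0.50 (SE 0.28), was not called in the fit of all 8 libraries (edgeR adjusted p = 1), in which the spread of the P12 libraries enters. It was called when only the 4 embryonic libraries were fitted (0.51, edgeR adjusted p = 0.0479, DESeq2 adjusted p = 1.16e-10) and by limma-voom with a weight for each library (0.51, adjusted p = 0.00454). Hypoxia against normoxia gave 0.59 (SE 0.28, edgeR adjusted p = 0.334), with a 95% interval from -0.10 to 1.27.

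**Figure D1:**
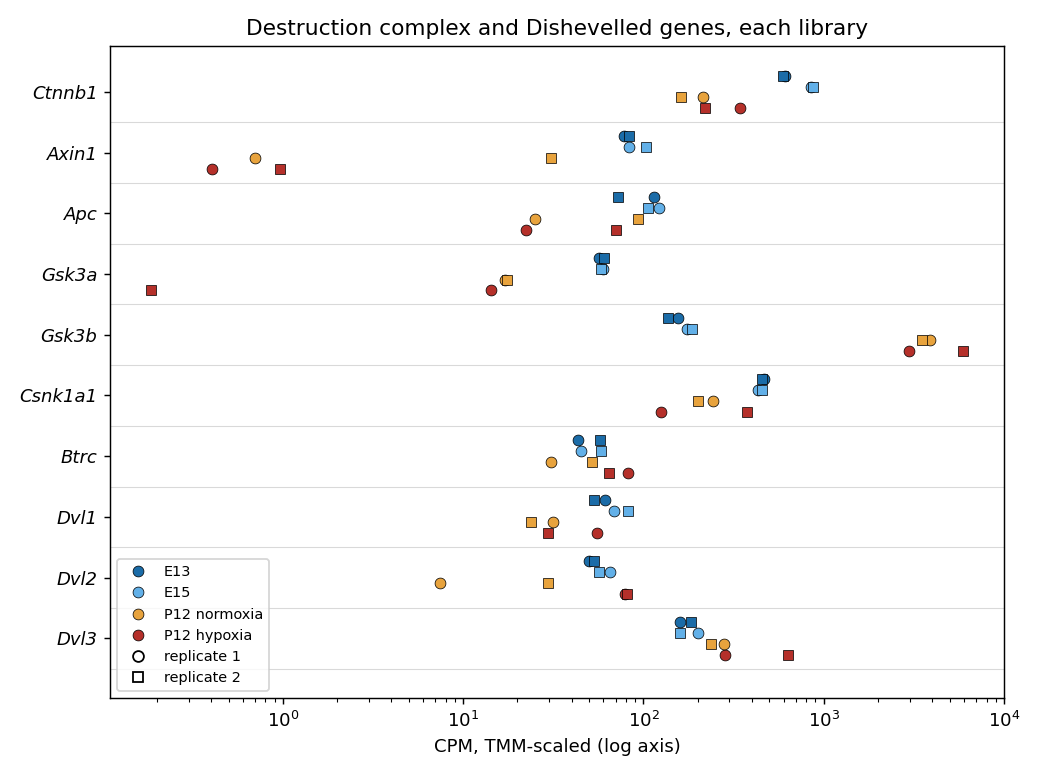
Level of each of the 10 genes in each library, in TMM-scaled CPM on a log axis, coloured by group, with circles for replicate 1 and squares for replicate 2. Gsk3b lies at 2963 CPM or above in the 4 P12 libraries and at 185 CPM or below in the 4 embryonic ones, Ctnnb1 lies the other way round, and the P12 libraries of Axin1 and Gsk3a are spread over more than 1 order of magnitude.

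The glycogen synthase kinase pair moved apart between embryo and P12. Gsk3b (chromosome 16, 38089001 to 38246084, plus strand) had 156 and 136 CPM at E13 and 174 and 185 CPM at E15. At P12 it had 3881 and 3491 CPM in normoxia and 2963 and 5952 CPM in hypoxia. It was thus among the most abundant genes of each P12 library, at rank 37 and 23 in normoxia and 31 and 18 in hypoxia among 19936 tested genes, but at rank 758 to 1131 in the embryonic libraries. Its share of all gene counts was 0.234% to 0.380% at P12 and 0.0188% to 0.0245% in the embryo. Gsk3b rose by 4.51 on the log2 scale in normoxic P12 cells (SE 0.28, edgeR adjusted p = 0.00048) and by 4.64 in all P12 cells (SE 0.26, edgeR adjusted p = 0.000322), which is 25.0-fold. The P12 groups overlapped, with a hypoxia to normoxia difference of 0.27 (SE 0.32, edgeR adjusted p = 0.778, 95% interval -0.51 to 1.06).

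Gsk3a (chromosome 7, 25228258 to 25237851, minus strand), whose protein has largely overlapping kinase activity, had 56.4 and 60.2 CPM at E13, 59.5 and 58.2 CPM at E15, 17.0 and 17.5 CPM in normoxia, and 14.2 and 0.185 CPM in hypoxia. The embryonic libraries were nearly level, and all 4 P12 libraries were lower, with hypoxia replicate 2 holding 5 counts where hypoxia replicate 1 held 422. The difference of all P12 from embryonic libraries was -2.40 (SE 1.11, edgeR adjusted p = 0.151), and that of hypoxia from normoxia -1.26 (SE 1.51, edgeR adjusted p = 0.789). The P12 to embryo difference was called without either hypoxic library, at -1.93 without replicate 2 (edgeR adjusted p = 0.0056) and at -5.08 without replicate 1 (edgeR adjusted p = 0.000961), and by limma-voom at -3.34 (adjusted p = 0.0348). Without hypoxia replicate 1, which leaves the library with 5 counts as the only hypoxic one, Gsk3a was called lower in hypoxia (-6.41, edgeR adjusted p = 0.00686), a value that rests on that single library.

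The 250 bases upstream of each start are shown because these kinase genes parted between the stages. They are RefSeq windows on GRCm38.p6, at chr7:25237852-25238101 (minus strand) for Gsk3a and chr16:38088751-38089000 (plus strand) for Gsk3b, written 5′ to 3′ in the direction of the gene. Capitals mark matches on either strand to the CCAAT box, to the GC box (letters GGGCGG) and to the core of the TATA box (letters TATAAA).
Gsk3a: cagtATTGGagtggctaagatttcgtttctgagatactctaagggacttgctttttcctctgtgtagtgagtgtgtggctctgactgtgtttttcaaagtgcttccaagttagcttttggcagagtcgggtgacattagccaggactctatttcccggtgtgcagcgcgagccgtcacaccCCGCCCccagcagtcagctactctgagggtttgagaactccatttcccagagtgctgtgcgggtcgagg
Gsk3b: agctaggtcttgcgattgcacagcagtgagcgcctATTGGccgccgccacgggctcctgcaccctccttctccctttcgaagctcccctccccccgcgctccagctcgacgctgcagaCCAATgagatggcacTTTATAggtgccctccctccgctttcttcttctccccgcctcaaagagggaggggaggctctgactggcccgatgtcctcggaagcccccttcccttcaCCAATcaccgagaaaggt

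The Gsk3a window held 1 CCAAT match, 1 GC box match and 9 CpG. The Gsk3b window held 3 CCAAT matches, 1 TATA match, 0 GC box matches and 15 CpG. Over all 32536 windows of that length in the table, 33.8% held the CCAAT letters, 32.97% those of the GC box and 12.3% those of the TATA box, and the median number of CpG was 6. The letters bound by TCF and LEF proteins, searched as CTTTGAT (found in 3.21% of all windows) and, separately, as CTTTGTT (found in 5.02%), were in neither window, nor in those of Ctnnb1, Dvl1, Dvl2 and Dvl3, and 6 of the 10 genes were in the table. Such matches describe the letters only.

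Csnk1a1, which encodes the casein kinase that phosphorylates codon 45 first, had 463 and 452 CPM at E13, 432 and 452 CPM at E15, 243 and 199.7 CPM in normoxia, and 125 and 377 CPM in hypoxia. All 4 P12 libraries were below all embryonic ones, and the hypoxic libraries spanned the normoxic pair. The P12 to embryo difference was -0.93 (SE 0.35, edgeR adjusted p = 0.0958). It was called without either hypoxic library (-0.69, edgeR adjusted p = 0.0205 without hypoxia replicate 1, and -1.45, adjusted p = 0.00594 without replicate 2). Hypoxia differed from normoxia by 0.18 (SE 0.49, edgeR adjusted p = 0.966), and the sign followed whichever hypoxic library was kept.

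Of the scaffold genes, Axin1 showed the widest range. Axin1 (chromosome 17, 26138688 to 26195811, plus strand), whose protein is the limiting scaffold of the complex in many cells, had 78.5 and 83.4 CPM at E13 and 83.1 and 103 CPM at E15. In the P12 libraries it had 0.699 and 30.7 CPM in normoxia and 0.404 and 0.962 CPM in hypoxia, from 22, 941, 12 and 26 counts. Normoxia replicate 2 lay below the embryonic range but well above the other 3 P12 libraries, which were all under 1 CPM. Axin1 fell by 4.73 on the log2 scale in all P12 cells (SE 1.16, edgeR adjusted p = 0.0284), a call that was lost without hypoxia replicate 1 or 2 (adjusted p = 0.0766 and 0.0611) or without any 1 embryonic library (0.0919 to 0.0969) and that became -6.97 (0.00497) without normoxia replicate 2. Hypoxia against normoxia gave -4.52 (SE 1.63, edgeR adjusted p = 0.240), and without normoxia replicate 2 this was -0.04, so the size of that difference came from 1 normoxic library.

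Apc, the large scaffold gene mutated in colorectal cancer, had 114 and 72.5 CPM at E13, 122 and 106 CPM at E15, 25.1 and 93.1 CPM in normoxia, and 22.4 and 70.8 CPM in hypoxia. In each P12 group one library was low and the other was close to the embryonic range, and the groups overlapped. The P12 to embryo difference was -0.97 (SE 0.57, edgeR adjusted p = 0.242) and the hypoxia to normoxia difference was -0.34 (SE 0.80, edgeR adjusted p = 0.946).

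Btrc, the substrate receptor of the ligase, had 43.5 and 57.2 CPM at E13, 44.8 and 58.3 CPM at E15, 30.5 and 51.8 CPM in normoxia, and 82.4 and 64.3 CPM in hypoxia. Both hypoxic libraries were above the 6 others, which overlapped each other. The hypoxia to normoxia difference was 0.83 (SE 0.48, edgeR adjusted p = 0.425), and the P12 to embryo difference was 0.11 (SE 0.34, edgeR adjusted p = 0.849), which became -0.16 with upper-quartile and -0.74 with total-count scaling.

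The Dishevelled genes, whose proteins pass the Wnt signal from Frizzled receptors to Axin, did not follow a common course. Dvl1 had 61.2 and 53.0 CPM at E13, 68.5 and 82.2 CPM at E15, 31.6 and 23.9 CPM in normoxia, and 55.4 and 29.7 CPM in hypoxia. Dvl2 had 50.0 and 53.4 CPM at E13, 65.1 and 56.8 CPM at E15, 7.40 and 29.6 CPM in normoxia, and 79.0 and 81.2 CPM in hypoxia. Dvl3 had 159.4 and 184 CPM at E13, 199.9 and 159.6 CPM at E15, 280.3 and 238 CPM in normoxia, and 284 and 632 CPM in hypoxia. Dvl1 was thus lower in 3 of 4 P12 libraries than in any embryonic one, Dvl2 was lowest in normoxia and highest in hypoxia, and Dvl3 was higher in every P12 library than in every embryonic one. The P12 to embryo differences were -0.93 for Dvl1 (SE 0.35, edgeR adjusted p = 0.0953), -0.55 for Dvl2 (SE 0.48, edgeR adjusted p = 0.432) and 0.97 for Dvl3 (SE 0.29, edgeR adjusted p = 0.0516). Of the 10 genes, Dvl2 had the smallest p between the P12 groups, with 2.12 (SE 0.71, 95% interval 0.38 to 3.85, unadjusted p = 0.0243, edgeR adjusted p = 0.216). The corresponding values were 0.82 for Dvl3 (SE 0.41, edgeR adjusted p = 0.354) and 0.62 for Dvl1 (SE 0.49, edgeR adjusted p = 0.609).

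Taken by comparison, 0 of the 10 genes passed the threshold (edgeR adjusted p below 0.05) between hypoxia and normoxia at P12, where 3.02% of the 19936 tested genes did, 0.196% higher and 2.82% lower. At an unadjusted edgeR p below 0.05 there were 2, Dvl2 and Axin1, beside 3632 of the 19936 tested genes. DESeq2 called 3 of them, Dvl2 (adjusted p = 0.00538) and Btrc (0.0396) higher and Axin1 (0.0201) lower, beside 20.0% of all genes, and limma-voom called 0 of them and 0% of all genes. The hypoxic libraries lay wholly above the normoxic ones for 4 genes (Ctnnb1, Btrc, Dvl2 and Dvl3), against 13.1% of all tested genes, and wholly below for Gsk3a, against 20.1%. The median difference of the 10 genes was 0.43, beside 0 for all tested genes, of which 45.0% had a positive difference. The 19936 tested genes passed a filter over all 8 libraries, and 14836 genes passed when the P12 libraries were filtered alone. This background therefore includes genes with few or no counts at P12, which affects its median and its shares. Oligodendrocyte progenitor markers summed to 522 to 768 CPM in hypoxia and 202 to 251 CPM in normoxia, with 4 of 5 higher and 1 lower. Oligodendrocyte markers summed to 816 to 1781 against 106 to 383 CPM. The oligodendrocyte list was split, however. Of its 4 markers 2 were higher and 2 lower in hypoxia, with a median log2 difference of -1.47. Endothelial and mural markers, nearly all Rgs5, separated the groups the other way, at 1022 to 1275 CPM in hypoxia and 1978 to 2523 CPM in normoxia. Neuron markers went that way too, at 89.6 to 376 against 388 to 422 CPM, with 4 of 6 lower and 2 higher. Radial glia and neural stem markers summed to 5202 to 5964 against 4332 to 4992 CPM, with 6 of 8 higher and 2 lower. Cycling markers summed to 419 to 526 against 330 to 369 CPM, with 2 of 3 higher and 1 lower. Hypoxic libraries also held counts for fewer genes. The part of any of these in the values of the 10 genes was not tested.

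Between E15 and E13, 0 of the 10 genes and 0% of tested genes passed in edgeR. None of the 10 had an unadjusted p below 0.05, while 690 of all tested genes did, and DESeq2 on all 8 libraries called 0 of the 10 and 1.87% of all genes. Ctnnb1 was called by 3 other fits. Of all genes they called 1.25% (edgeR, only the embryonic libraries), 4.69% (limma-voom) and 12.5% (DESeq2, only the embryonic libraries). The E15 libraries lay wholly above the E13 libraries for Ctnnb1, Gsk3b, Dvl1 and Dvl2, against 23.6% of tested genes, and wholly below for 0, against 25.8%. Gsk3b differed by 0.30 (SE 0.32), Dvl1 by 0.40 (SE 0.49) and Dvl2 by 0.24 (SE 0.68), and the other 6 genes besides Ctnnb1 by -0.05 to 0.29. Cycling markers summed to 686 to 781 CPM at E13 and 246 to 253 CPM at E15, and red blood cell markers to 1523 to 4944 against 15.7 to 67.9 CPM. Their part was not tested.

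In normoxic P12 cells against the mean of E13 and E15, 2 of the 10 genes were called, Gsk3b higher and Ctnnb1 lower, where 17.8% of tested genes were called, 12.1% higher and 5.68% lower. In all P12 against all embryonic libraries, 3 of the 10 were called, Gsk3b higher and Ctnnb1 and Axin1 lower, beside 30.2% of tested genes, 14.1% higher and 16.1% lower. These comparisons share the embryonic and the normoxic libraries and are not independent. The groups did not overlap for 6 of the 10 genes in all P12 against embryo: Gsk3b and Dvl3 were higher, against 15.5% of tested genes, and Ctnnb1, Axin1, Gsk3a and Csnk1a1 were lower, against 22.8%. The median of the 10 genes was -0.93 beside -0.39 for all tested genes. Scaling moved the level of all genes in this comparison, the median of all tested genes being -0.29 with relative log expression, -0.65 with upper-quartile and -1.24 with total-count scaling. Relative to that median Gsk3b was at 4.98 to 5.07, Dvl3 at 1.30 to 1.40 and Ctnnb1 at -1.28 to -1.25 on the log2 scale in the 4 scalings. With total-count scaling the calls over all genes split into 1915 higher and 5039 lower, against 2817 and 3205 with TMM, and in normoxia against embryo into 1699 and 2099, against 2408 and 1133.

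**Figure D2:**
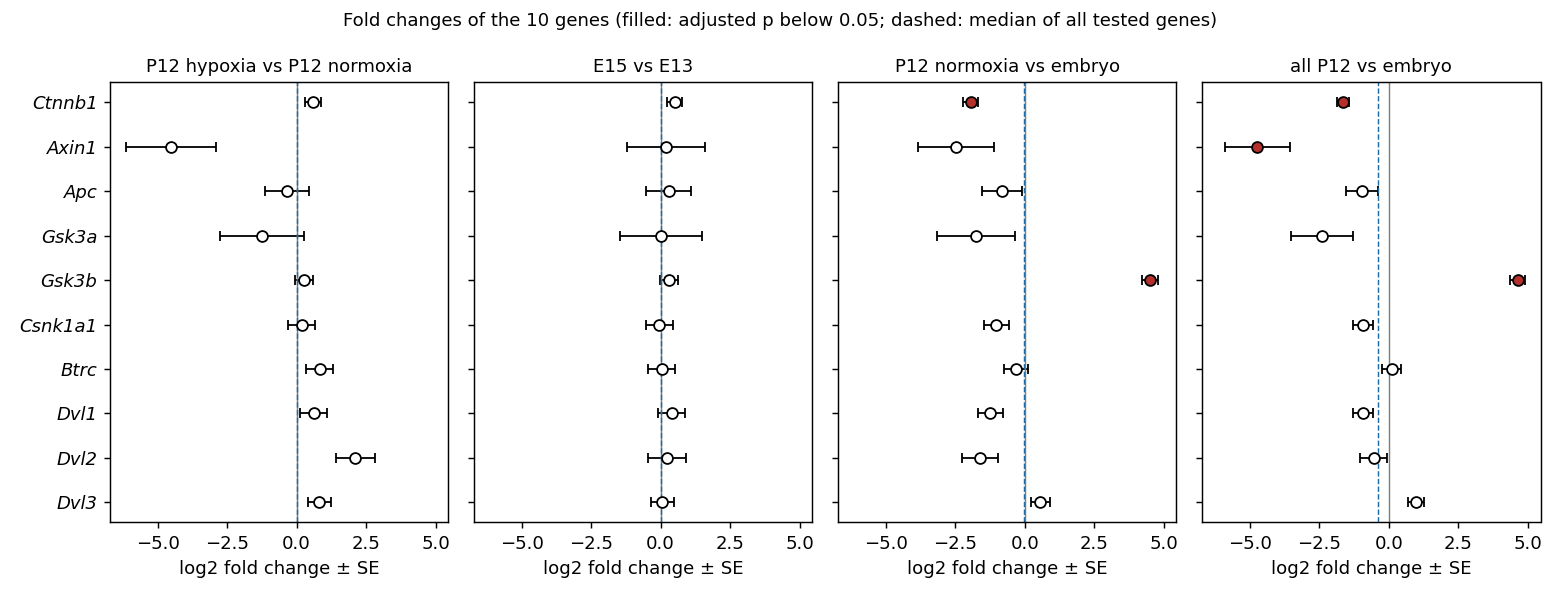
Log2 fold change of each of the 10 genes in each comparison, with bars of 1 SE from the edgeR fit, filled where the adjusted p was below 0.05, and a dashed line at the median of all 19936 tested genes. The filled points are Gsk3b (4.51 and 4.64), Ctnnb1 (-1.94 and -1.65) and, in all P12 against embryo, Axin1 (-4.73), and the bars of Axin1 and Gsk3a are the widest in every panel.

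Per kilobase of exon, which allows levels of different genes to be compared, the order of the 10 genes also changed. In the embryo Ctnnb1 led, with a group mean of 116 CPM per kilobase at E13 and 165 at E15, followed by Csnk1a1 (43.6 and 42.1), Dvl3 (26.8 and 28.0), Axin1 (21.1 and 24.3), Gsk3a (20.1 and 20.3) and Gsk3b (14.9 and 18.3). Dvl1, Dvl2, Apc and Btrc came last, with 15.1 CPM per kilobase or less, and the order was the same at E13 and E15. Libraries of neighbours in this order overlapped for Axin1 and Gsk3a at E13 and for Dvl3 and Axin1 at E15. At P12 Gsk3b led, with 375 CPM per kilobase in normoxia and 453 in hypoxia, ahead of Dvl3 (40.4 and 71.4), Ctnnb1 (36.1 and 54.2) and Csnk1a1 (21.1 and 23.9). The libraries of Dvl3 and Ctnnb1 overlapped in both P12 groups, while Csnk1a1 lay below Ctnnb1 in both. The other 6 genes had group means of 12.7 CPM per kilobase or less at P12.

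Several members have a paralog with a shared role, and the balance within each family was taken as a share of the summed CPM per kilobase, a ratio within each library that scaling between libraries does not alter. Gsk3a made up 55.0%, 59.97%, 53.7% and 51.6% of the glycogen synthase kinase pair in the embryonic libraries, and 1.46%, 1.67%, 1.60% and 0.011% at P12. Per kilobase the pair was thus near balance in the embryo and almost wholly Gsk3b at P12, a difference of -53.9 percentage points (exact two-sided permutation test, 4 against 4 libraries, p = 0.0286, 0.04 adjusted over the 7 shares). That p is the smallest 4 against 4 libraries can give. Among the Dishevelled genes Dvl3 held 49.4% to 60.1% in the embryo and 65.2% to 85.4% at P12, a difference of 23.2 points, and Dvl1 22.2% to 32.7% against 5.06% to 16.3%, a difference of -15.7 points (exact permutation test, adjusted p = 0.04 for each). Dvl2 held 17.6% to 18.7% in the embryo and 2.29% to 18.5% at P12 (exact permutation test, p = 0.114, adjusted p = 0.133). The Dishevelled shares are parts of the same sum, so a higher share of Dvl3 leaves less for the others, and their tests are not independent.

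Axin2 encodes a second scaffold and is itself a Wnt target. Axin1 made up 97.0% to 98.0% of the Axin pair in the embryo, 17.8% and 73.7% in normoxia, and 0.49% and 1.36% in hypoxia (P12 to embryo difference -74.0 points, exact permutation test adjusted p = 0.04). Both paralogs contributed to this. Axin2 had 2.33 to 4.44 CPM in the embryo, 4.64 and 15.8 CPM in normoxia and 118 and 100.2 CPM in hypoxia, rose in P12 against embryonic cells (3.26, SE 0.56, edgeR adjusted p = 0.01), and differed by 3.42 between the P12 groups (SE 0.80, edgeR adjusted p = 0.0986). Hypoxic cells therefore held Axin2 in place of Axin1 in both libraries, while the normoxic libraries differed from each other in which Axin led.

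Apc2, a neuronal relative of Apc, fell by 4.05 on the log2 scale in P12 against embryonic cells (SE 0.90, edgeR adjusted p = 0.0205), from 349 to 421 CPM in the embryo to 50.3 and 34.3 CPM in normoxia and 25.2 and 1.22 CPM in hypoxia. The Apc share of the pair was accordingly higher at P12, 25.9%, 65.5%, 38.4% and 97.6% against 12.7% to 16.8% (41.4 points, exact permutation test adjusted p = 0.04). Neuron markers moved in the same direction as Apc2, and their part was not tested. Fbxw11, the second beta-TrCP gene, had 213 to 245 CPM in the embryo, 22.5 and 149 CPM in normoxia and 121 and 397 CPM in hypoxia, with no call in any comparison. Btrc held 4.48% to 6.37% of that pair in the embryo and 3.99% to 25.8% at P12 (exact permutation test, p = 0.171, adjusted p = 0.171), so Fbxw11 was the more abundant per kilobase in all 8 libraries. Without the length correction, Btrc led in normoxia replicate 1 (30.5 against 22.5 CPM).

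**Figure D3:**
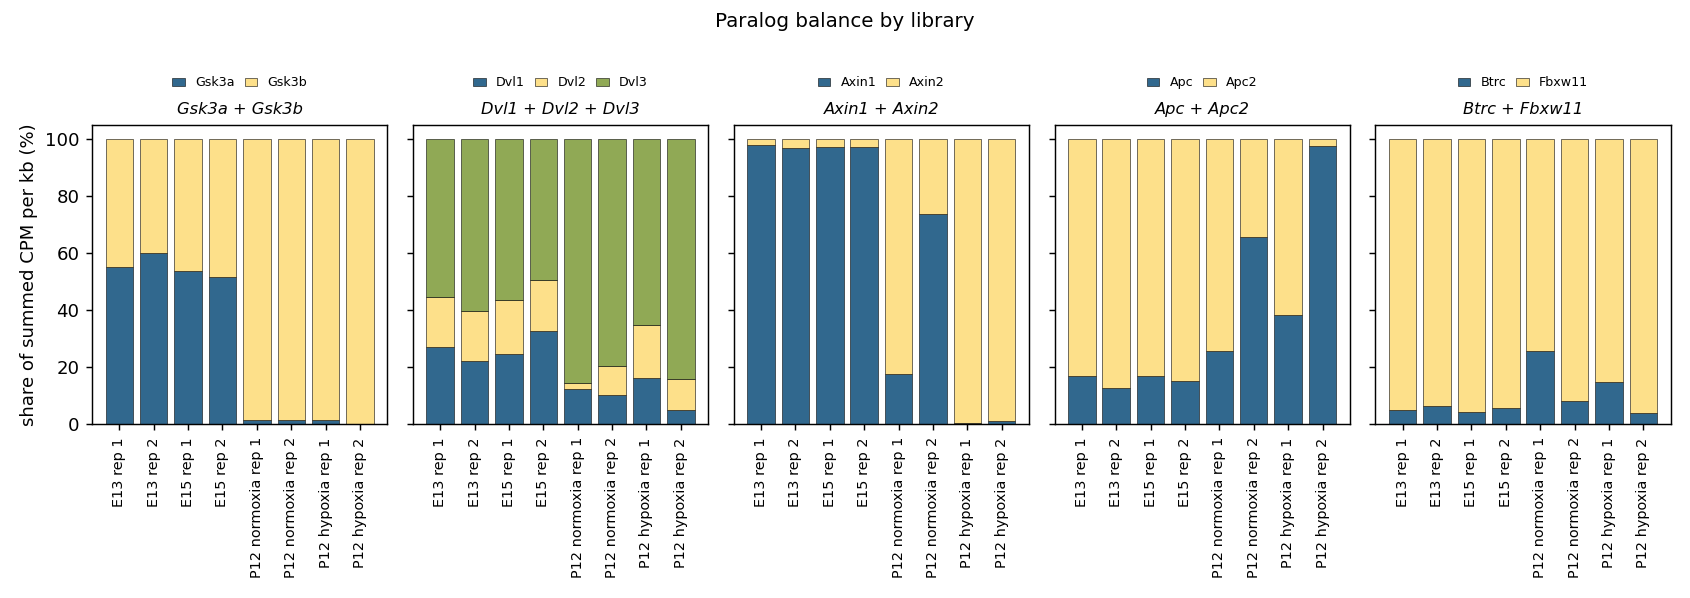
Share of each paralog in the summed CPM per kilobase of its family, in percent, 1 bar per library from E13 to P12 hypoxia. Gsk3a goes from 51.6% to 59.97% of its pair in the 4 embryonic libraries to 1.67% or less at P12, Dvl3 holds 65.2% or more of its family at P12, and Axin1 leads in every embryonic library but in only 1 P12 library.

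Beyond the 10 genes, 90 others of the pathway were listed by role, of which 86 were tested. In all P12 against embryonic cells 16 of them were called higher and 22 lower, with a median of -0.64, beside 14.1% higher, 16.1% lower and a median of -0.39 over all tested genes. In normoxia against embryo 13 were higher and 12 lower, with a median of -0.49, beside 12.1%, 5.68% and -0.04. Between E15 and E13 0 were called. Of these, Tcf7l2 had the smallest p, at 0.894 and 1.35 CPM at E13 and 20.5 and 37.5 CPM at E15 (4.69, SE 0.51, edgeR adjusted p = 0.452). Between hypoxia and normoxia 2 were called higher and 3 lower, beside 0.196% and 2.82% of all tested genes, with a median of 0.21, which became 0.16 when genes at 0 in a whole group were set to the limit that 3 counts allow.

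Among regulators of the destruction complex, 3 of 28 were higher and 8 lower in all P12 against embryonic cells, where 14.1% of all tested genes were higher and 16.1% lower. Frat1, which binds glycogen synthase kinase 3 and takes it away from Axin, had 2.66 to 3.78 CPM in the embryo and 223 to 1141 CPM at P12 (7.58, SE 0.58, edgeR adjusted p = 0.000707). Csnk2a1, the catalytic subunit of casein kinase 2, had 56.0 to 70.2 CPM in the embryo and 2898 to 4485 CPM at P12 (5.74, SE 0.19, edgeR adjusted p = 0.000108). Both thus rose at P12, as Gsk3b did. Axin2 also rose, but mostly in hypoxia. Its group means were 3.03 CPM at E13, 4.01 at E15, 10.2 in normoxia and 109 in hypoxia. Of the genes that fell, Skp1a and Rbx1 encode subunits that join Btrc in its ligase: Skp1a had 371 to 415 CPM in the embryo and 89.4 to 154.6 CPM at P12 (-1.77, SE 0.22, edgeR adjusted p = 0.00385). Rbx1, named after its values were seen, had 198 to 222 CPM in the embryo and 42.9 to 155 CPM at P12, with no overlap. Of all tested genes, 22.8% lay wholly lower at P12 in the same way. Ppp2r1b, a scaffold subunit of phosphatase 2A, had 160.2 to 309.5 CPM in the embryo, 35.9 and 36.7 CPM in normoxia and 116 and 152 CPM in hypoxia (-1.74, SE 0.21, edgeR adjusted p = 0.00316).

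Of the receptor genes, 4 of 17 tested were higher and 4 lower at P12, beside 14.1% and 16.1% of all tested genes. Znrf3, which removes Frizzled receptors and is also a Wnt target, had 1.48 to 5.36 CPM in the embryo and 829.9 to 1917 CPM at P12 (8.64, SE 0.61, edgeR adjusted p = 0.00056). Lgr4, a receptor for R-spondins, which counter Znrf3, had 0.370 to 7.31 CPM in the embryo and 367 to 890.4 CPM at P12 (7.73, SE 0.90, edgeR adjusted p = 0.00282). Lrp6, the Wnt coreceptor, had 36.4 to 53.5 CPM in the embryo, 72.5 and 76.1 CPM in normoxia and 194 and 164 CPM in hypoxia (1.32, SE 0.25, edgeR adjusted p = 0.0139). Fzd5 had 14.3 and 20.0 CPM in normoxia, 2.25 and 0.814 CPM in hypoxia and 0 counts in all 4 embryonic libraries. The 3 called Dishevelled partners of 10 were all lower. Of these, Vangl2, a planar polarity gene, had 142 to 167 CPM in the embryo and 24.6 to 70.9 CPM at P12 (-1.76, SE 0.38, edgeR adjusted p = 0.019), and Dact3 14.3 to 18.7 against 0.168 to 8.57 CPM (-3.03, SE 0.67, edgeR adjusted p = 0.0209). The third, Nkd2, had at most 2.09 CPM in any library.

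The nuclear partners of beta-catenin gave 4 higher and 3 lower of 16, beside 14.1% and 16.1% of all tested genes. Levels of the DNA-binding partners Tcf7l2 and Lef1 went opposite ways between embryo and P12. Tcf7l2 was already above Lef1 in both E15 libraries, though not at E13, and binding of beta-catenin was not measured. Tcf7l2 had 0.894 to 37.5 CPM in the embryo and 1728 to 3886 CPM at P12 (8.67, SE 0.43, edgeR adjusted p = 0.000236), and Lef1 had 13.1 to 19.3 CPM in the embryo and 1 count in the 4 P12 libraries together. Crebbp, a coactivator, had 105 to 122 CPM in the embryo and 360 to 686 CPM at P12 (2.26, SE 0.26, edgeR adjusted p = 0.00274), and Ctnnbip1, which blocks binding of beta-catenin to TCF proteins, had 34.4 to 51.7 against 94.1 to 166 CPM (1.72, SE 0.30, edgeR adjusted p = 0.0104). Cadherin-bound partners gave 3 higher and 2 lower of 9. Ctnna1, which links beta-catenin to actin, had 54.0 to 74.1 CPM in the embryo and 166 to 573 CPM at P12 (2.38, SE 0.43, edgeR adjusted p = 0.0117), Ctnnd2 had 40.0 to 78.4 against 174 to 279 CPM (2.08, SE 0.23, edgeR adjusted p = 0.00236), and Pkp4 had 0.881 to 5.51 against 120 to 227 CPM (5.87, SE 0.47, edgeR adjusted p = 0.000817). Of the listed Wnt targets, 4 of 12 tested were higher and 3 lower at P12, so the list did not move one way: Ccnd1, a cell cycle gene, had 1.004 to 1.91 CPM in the embryo and 26.0 to 154 CPM at P12 (5.98, SE 0.77, edgeR adjusted p = 0.00395), beside the rise of Axin2 and Znrf3 and the fall of Lef1.

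The genes of the list called between hypoxia and normoxia were Csnk1g2, Ppp2r1b, Fzd9, Bcl9l and Jup. Csnk1g2, a membrane-bound casein kinase 1, had 98.9 and 121 CPM in hypoxia against 10.4 and 10.5 CPM in normoxia (3.40, SE 0.38, edgeR adjusted p = 0.0228), with 76.1 to 87.8 CPM in the embryo. Ppp2r1b was higher by 1.89 (SE 0.30, edgeR adjusted p = 0.0372). For both, the hypoxic libraries were nearer to the embryonic level than the normoxic ones were. Bcl9l, a coactivator of beta-catenin, had 0.404 and 0.925 CPM in hypoxia against 20.8 and 27.3 CPM in normoxia (-5.17, SE 0.81, edgeR adjusted p = 0.0372) and 16.6 to 27.4 CPM in the embryo. Jup, which encodes plakoglobin, the closest relative of beta-catenin, had 0.135 and 0.407 CPM against 9.43 and 25.2 CPM (-5.99, SE 1.04, edgeR adjusted p = 0.0455) and 20.8 to 27.7 CPM in the embryo. For Bcl9l and Jup it was the normoxic libraries that were nearer to the embryo. Fzd9, a receptor gene, had 0.034 and 0.111 CPM in hypoxia, from 1 and 3 counts, against 6.57 and 7.04 CPM in normoxia (edgeR adjusted p = 0.0397). These calls depended on the test. DESeq2 made all 5 with all 8 libraries and 4 of 5, without Ppp2r1b, with only the 4 P12 libraries, whereas limma-voom, edgeR on only the P12 libraries and edgeR without any 1 embryonic library called 0 of the 5 and 0 genes of the whole table between hypoxia and normoxia.

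**Figure D4:**
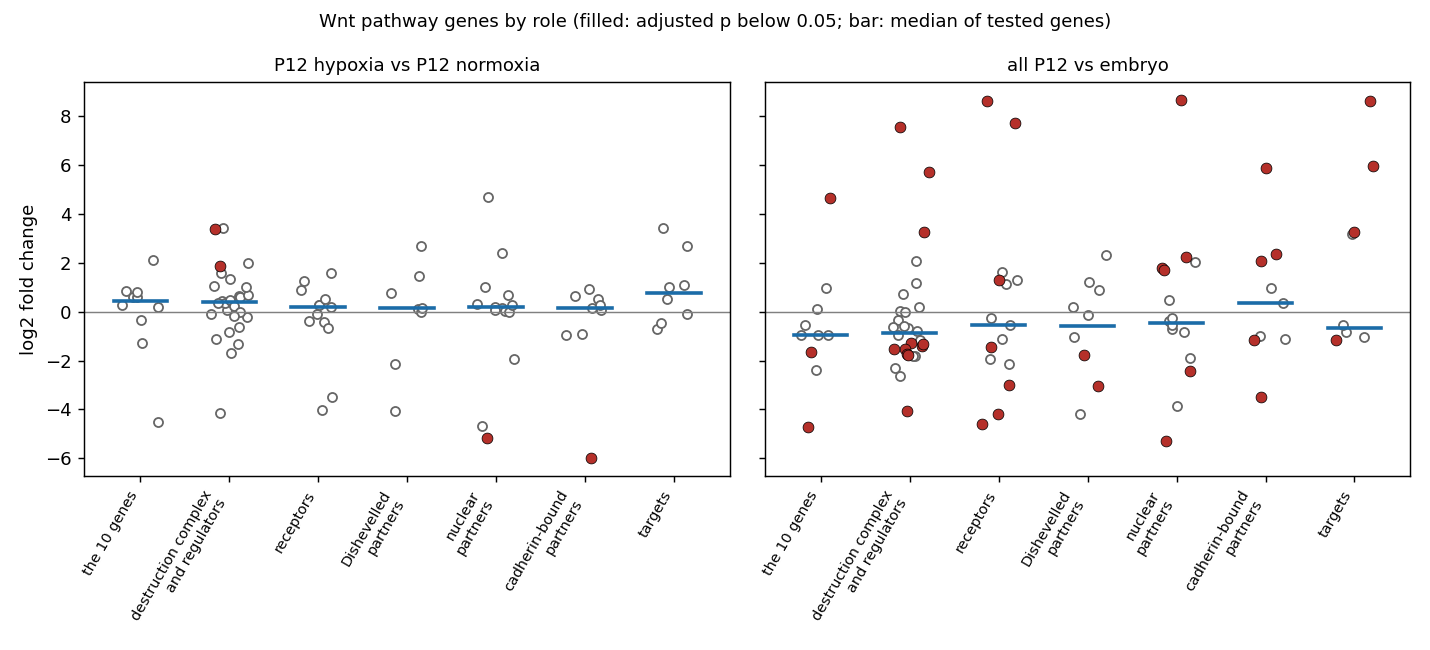
Log2 fold change of the 10 genes and of the other pathway genes by role, for hypoxia against normoxia at P12 (left) and all P12 against embryo (right), filled where the edgeR adjusted p was below 0.05, with a bar at the median of all tested genes of the role. Genes whose mean in one group was at or below 0.111 CPM, the highest level that 3 counts stood for, are not drawn (9 on the left, among them Fzd9, and 6 on the right), and filled points lie on both sides of 0 in 6 of the 7 columns on the right.

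Over the 8 libraries the tested genes most like Ctnnb1 in pattern were Epha5 (Pearson's r = 0.990 of log2(CPM + 1)), Pusl1 (0.985), Mlh3 (0.984), Zfp451 (0.980) and Clip3 (0.979). Their levels differed from that of Ctnnb1. Pusl1, for example, had 7.68 to 11.8 CPM in the embryo and 0.0652 to 1.21 CPM at P12. Epha5, an ephrin receptor gene, had 280 to 415 CPM in the embryo and 77.0 to 166 CPM at P12, the same direction as Ctnnb1 over a similar range of folds. Among the 10 genes themselves, Dvl1 was most like Ctnnb1 (r = 0.958) and Gsk3b least (r = -0.925). These values share libraries, depth and the embryo to P12 step that dominates them, and describe likeness of pattern across libraries only.

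Overlapping genes could raise or lower the counts of some members, depending on how reads shared by overlapping genes were counted. The strand setting of the counting is not given in the sources used here, and reads of overlapping genes then cannot be told apart. Ulk4 lies opposite the end of Ctnnb1 and had at most 19.7 CPM in any library, Acadvl lies opposite the end of Dvl2 and had at most 40.6 CPM, and Gm16618 lies opposite the start of Dvl3 and had at most 13.2 CPM. Acadvl had 0.148 CPM in hypoxia replicate 2, where Dvl2 had 81.2 CPM. Dvl1, Gsk3a, Axin1, Apc and Btrc each also overlap a gene on the opposite strand, whose level is not given here. Gsk3b overlaps only the small nucleolar RNA genes Gm25617 and Gm27931. Of its neighbours on chromosome 16, Nr1i2, on the opposite strand with its nearer end 2.2 kilobases beyond Gsk3b, had 0 counts in all 8 libraries. Lrrc58, 200.1 kilobases before Gsk3b, had 191.5 to 237 CPM in the embryo and 7303 to 14161 CPM at P12. Because Nr1i2 lies on the opposite strand and the strand setting is not given, its 0 counts cannot show whether reads extended beyond Gsk3b.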

How the data were processed

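Per the labels' protocols, each library was built with the NEBNext Ultra II kit from 400 pg of RNA. The authors deposited raw counts per gene, 1 file for each of 8 libraries. Per the submitters' processing notes, the tools used were cutadapt, STAR and Subread and the build was GRCm38. The annotation, strand and multiple-mapping settings are not given in the sources used here. Of 55487 lines per file, 1980 named no gene (0.205% to 0.266% of counts) and were left out.

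Counts were tested with edgeR 4.0.16 in R 4.3.3 (TMM, filterByExpr with minimum count 10 and minimum total 15, quasi-likelihood fit of 4 groups over 8 libraries, 4 residual degrees of freedom, two-sided, Benjamini-Hochberg over 19936 genes, threshold 0.05). The SE was computed from the F statistic. DESeq2 1.42.0, limma 3.58.1 with voom, other scalings and filters, a replicate block, and each library left out were alternatives. Total-count scaling, and DESeq2 fitted to the compared groups alone, were chosen after seeing the data. Exon lengths and positions came from GENCODE M21, promoters from RefSeq. Shares were tested in Python 3.11.15 with scipy 1.17.1. The fit was tested on simulated data.

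The 10 genes, the pathway and marker lists and the tests were chosen with earlier results of these data known. All 10 genes are named throughout; from the pathway list, called genes are named, or the 4 of smallest p in a role, or the 1 of smallest p where none was called, with Axin2, Apc2 and Fbxw11 always named. Rbx1, Lrrc58, Nr1i2 and the overlapping genes were named after their values were seen. Limits that a count of 0 allows use 3 counts, and limits and intervals on counts cover counting error only.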

Additional observations from a re-analysis of the deposited data

How the results depend on the processing

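Gsk3b (3.74 to 4.80) and Ctnnb1 (-2.52 to -1.52) kept their calls in all P12 against embryo under all 17 alternatives, and in normoxia against embryo under all 19. The number of the 10 genes called was less firm. Hypoxia against normoxia gave 3 with DESeq2, and 0 to 2 with 1 library left out: Gsk3a and Dvl3 without hypoxia replicate 1, Axin1 without normoxia replicate 1 and Dvl2 without normoxia replicate 2. E15 against E13 gave 1, Ctnnb1, with limma-voom, with edgeR and with DESeq2 on the compared groups only, and 0 to 0 with 1 library left out. Normoxia against embryo gave 4 with DESeq2 and with total-count scaling, 5 with edgeR and 7 with DESeq2 on the compared groups only, and 2 to 5 with 1 library left out. All P12 against embryo gave 5 with DESeq2, limma-voom, upper-quartile and total-count scaling, and 2 to 6 with 1 library left out. In normoxia against embryo, the share of all tested genes called was 36.4% with DESeq2 and 19.1% with total-count scaling. It was 34.4% with edgeR and 48.7% with DESeq2 on the compared groups only. In all P12 against embryo it was 46.6% with DESeq2, 25.9% with limma-voom, 31.0% with upper-quartile and 34.9% with total-count scaling. The cause of the differing numbers was not tested. Over all genes, calls in these 4 comparisons were 602, 0, 3541 and 6022, against 3981, 373, 7252 and 9285 with DESeq2, and 0, 935, 3587 and 5170 with limma-voom. Without 1 library they ranged from 0 to 3018, 0 to 0, 928 to 5990 and 1754 to 8068.

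Signs changed among values that were not called. Csnk1a1 between the P12 groups was -0.11 with limma-voom, Dvl3 in normoxia against embryo -0.28 with total-count scaling, and Btrc in all P12 against embryo -0.16 with upper-quartile and -0.74 with total-count scaling. Gsk3a in E15 against E13 was -0.013 with upper-quartile scaling, -0.00012 with a filter of 5 CPM in 2 libraries, -0.0054 with the replicate block and -0.015 with total-count scaling. With 1 library left out, hypoxia against normoxia ranged from -1.32 to 0.89 for Apc, -0.31 to 0.80 for Gsk3b and -0.82 to 0.87 for Csnk1a1. E15 against E13 ranged from -0.025 to 0.058 for Gsk3a, -0.10 to 0.22 for Dvl3, -0.17 to 0.24 for Btrc and -0.0035 to 0.66 for Apc, and Btrc in all P12 against embryo from -0.11 to 0.24. The share differences ranged from -55.0 to -52.2 points for Gsk3a, -17.5 to -13.7 for Dvl1, -10.2 to -4.81 for Dvl2, 21.0 to 27.7 for Dvl3, -90.7 to -66.3 for Axin1, 27.9 to 51.8 for Apc and 3.61 to 10.9 for Btrc. With 3 against 4 libraries the exact test cannot go below 0.0571, so no share can pass there.

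No pairing by replicate number was seen: deviations from the group mean correlated at -0.044 to 0.014 between libraries of equal number over 6 pairs of groups. With 2 libraries per group and the wide spread at P12, this cannot exclude a pairing. With the replicate block 0, 0, 2 and 3 of the 10 genes were called in the 4 comparisons, and 1, 0, 1705 and 3924 of all genes.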

Other observations

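The tested genes most like Gsk3b over the 8 libraries, by a rule added after its values were seen, were Tug1 (Pearson's r = 0.999), Fam219b (0.999), Pacsin3 (0.998), Srpk1 (0.998) and Rab7 (0.998). Rab7, a gene of late endosomes, had 177 to 188 CPM in the embryo and 662 to 943 CPM at P12. Tug1, a long noncoding RNA gene, had 237 to 272 CPM in the embryo and 3369 to 5348 CPM at P12. Pacsin3 had 0.859 to 1.64 against 190 to 409.8 CPM. In all 3 the P12 libraries lay above the embryonic ones, as for Gsk3b.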
